A study of Mus musculus with 6 samples.

Results

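GL7 is a monoclonal antibody that is widely used to recognize mouse germinal center (GC) B cells, and what it binds is a sugar, a glycan that ends in a sialic acid. The genes described here encode 10 enzymes that make, attach, remove or carry this sugar: Gne, Nans, Cmas and Cmah supply the sialic acid, St6gal1 and St3gal1 attach it, C1galt1 and Gcnt1 build the O-glycan core on which it can sit, and Neu1 and Siae take sialic acid or its acetyl groups away. They were listed by name for these roles, with no rule on their measured values but with earlier results of these data known. All 10 were among the 39179 Ensembl gene identifiers with a value. RNA-Seq was performed on GC B cells (Fas+GL7+) and on resting, or naive, B cells (Fas-GL7-) sorted from Peyer's patches of the ileum, the lymphoid follicles in which gut antigens sustain GCs. All mice were female wild-type C57BL/6 littermates aged 12 wk, with no transgene and no immunization named in the labels. Each population was represented by 3 pools of 5 mice, so the spread between pools does not show the spread between single mice. Because GL7 and Fas were part of the gate, cells were separated by the very epitope to which these genes contribute. A difference between GC and naive B cells as such cannot be told apart from a difference between cells that bind GL7 and cells that do not.

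Sialic acid is made in the cytosol from UDP-N-acetylglucosamine and is activated in the nucleus to CMP-sialic acid, which sialyltransferases of the Golgi use as donor. In most mammals CMAH oxidizes the common form, N-acetylneuraminic acid, to N-glycolylneuraminic acid while it is bound to CMP, so that the cell surface carries a mixture of both. The GL7 antibody recognizes N-acetylneuraminic acid on N-acetyllactosamine, in the linkage to galactose that ST6GAL1 makes, and B cell lectins such as CD22 bind sialic acid in this same linkage.

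Expression is given as transcripts per 1000000 (TPM), the deposited FPKM (fragments per kilobase of transcript, scaled to the mapped fragments of the pool) divided by the total of the pool and multiplied by 1000000. TPM is a value per transcript length and allows levels to be compared between genes. Differences are on the log2(TPM + 1) scale, GC minus naive, and were tested with limma across the 12785 genes that reached 1 TPM in 3 or more pools, with Benjamini-Hochberg adjustment over all of them. A gene was called higher or lower at an adjusted p under 0.05. On this scale the change of weakly expressed genes is understated.

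The sort was checked first. Fas measured 108, 115 and 119 TPM in GC pools 1 to 3, against 3.05, 3.59 and 3.03 TPM in naive pools 1 to 3, a log2 difference of 4.77 (limma, adjusted p = 1.68e-07). Bcl6, the transcription factor on which GC B cells depend, was called higher in GC B cells (log2 difference 2.32, limma, adjusted p = 3.34e-07), and all 5 naive B cell markers with a value were called lower. Of the other cell types, T cell markers summed to 2.19 to 4.71 TPM in GC pools and to 1.72 to 3.54 TPM in naive pools, and myeloid markers to 0.836 to 2.31 and 3.96 to 7.07 TPM. Plasma cell markers summed to 663 to 698 TPM in GC pools and to 26.3 to 44.9 TPM in naive pools, almost entirely from Jchain. The other plasma cell markers did not move together. Prdm1 averaged 5.01 TPM in GC and 0.955 TPM in naive pools, and Tnfrsf17 did not pass the filter. Sdc1 was lower in GC B cells, at 1.51 against 3.19 TPM (log2 difference -0.75, limma, adjusted p = 0.0153). The 5 stromal markers summed to 21.99 to 24.5 TPM in GC pools and to 121 to 132 TPM in naive pools, almost entirely from Pecam1 (log2 difference -2.38, limma, adjusted p = 5.14e-07), an endothelial marker that some leukocytes also express, and Pdpn was listed at 0 in every pool. The 8 epithelial markers summed to 54.6 to 112 TPM in GC pools and to 131 to 185 TPM in naive pools, none was at 0, and of the 7 tested 4 were lower and 1 was higher in GC B cells. The 6 goblet cell markers summed to 8.46 to 31.4 TPM and 22.9 to 34.1 TPM. Other cell types use glycan genes too, and their part in the differences below was not tested. In sorted bulk samples, fewer cells of a type and less RNA per cell cannot be told apart. The depth behind the values was estimated at about 9700000 to 16000000 reads per pool.

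All 10 genes passed the filter on low values and all 10 were called: 6 were higher in GC B cells (St6gal1, Nans, Cmas, Neu1, C1galt1 and Siae) and 4 were lower (Cmah, St3gal1, Gne and Gcnt1). The median log2 difference of the 10 genes was 0.40, beside 0.03 over all genes tested. GC and naive B cells differ widely: 65.6% of all genes tested were called, 35.5% as higher and 30.1% as lower. For each of the 10 genes, GC and naive pools took up separate ranges, and the same held for 70.7% of all genes tested. Differences of at least 1 log2 unit were scarcer. Among all genes tested, 11.2% were called lower by that much, as were Cmah, St3gal1 and Gcnt1 here, and 14.2% were called higher by that much, as was Nans.

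**Figure D1:**
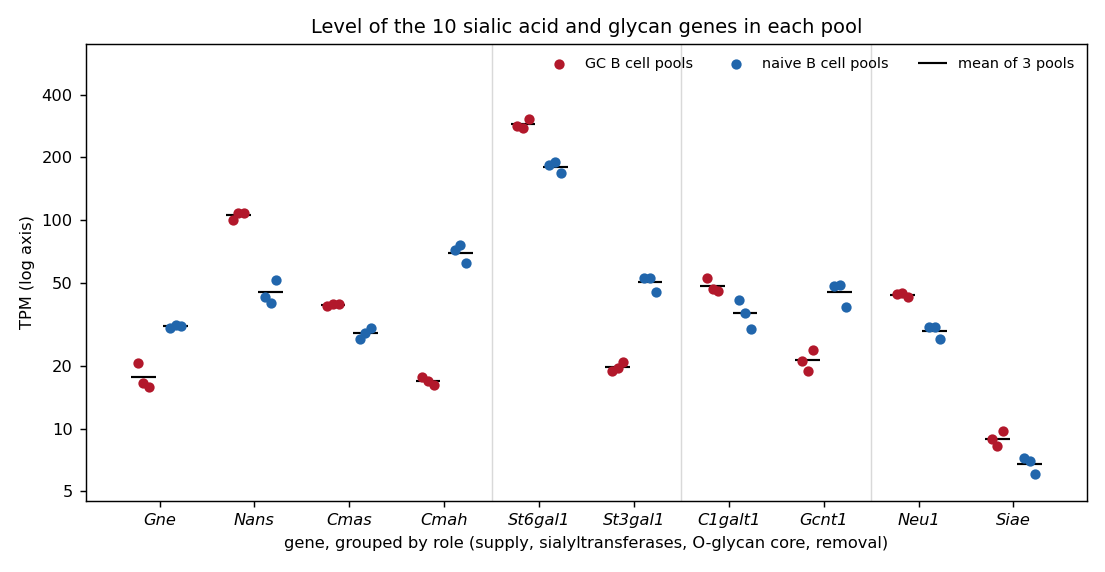
Level of each of the 10 genes in TPM (log axis) in the 3 GC pools (red) and the 3 naive pools (blue), with the mean of the 3 pools as a line, grouped by role. St6gal1 stands highest in both populations, Cmah falls from 69.9 TPM in naive to 16.9 TPM in GC B cells, and the 2 colors do not overlap for any gene.

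St6gal1 was the most highly expressed of the 10 genes in both populations, and Siae was the lowest in both. Between these ends the order changed. In naive B cells Cmah came second, at 69.9 ± 7.04 TPM (SD, n = 3 pools), above every pool of St3gal1, and the genes from St3gal1 through Gcnt1, Nans, C1galt1, Gne and Neu1 to Cmas formed a series in which each overlapped its neighbor. In GC B cells Nans came second, at 106 ± 4.79 TPM (SD, n = 3), followed by C1galt1, Neu1 and Cmas without overlap. Cmah was ninth of the 10 in GC B cells, at 16.9 ± 0.674 TPM (SD, n = 3), and overlapped Gne, which in turn overlapped St3gal1. Relative to all 12785 genes tested, the level of Cmah stood at percentile 82.8 in naive and at percentile 46.4 in GC B cells, while St6gal1 stood at percentile 94.2 and 96.4.

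Transcription start regions are shown for the genes on which the comparison turns: Cmah, with the largest difference of the 10, St6gal1, with the highest level, and Gcnt1 and C1galt1, which act in succession on the same O-glycan and were called in opposite directions. The sequences are the 250 bases before an annotated start site, from RefSeq with the build GRCm38.p6, 5′ to 3′ on the strand of the gene. Capitals mark matches on either strand to a GC box (GGGCGG) or a TATA box (TATAAA), and the interferon-gamma activated site TTCNNNGAA was searched as well. The matches did not overlap each other. For St6gal1 and Gcnt1 the first of 3 annotated regions is shown. Cmah has 2 annotated start regions, the upstream one at chr13:24327154-24327403 (+) and the downstream one, inside the gene, at chr13:24414872-24415121 (+). The first region of St6gal1 lies at chr16:23224490-23224739 (+), that of Gcnt1 at chr19:17372845-17373094 (-) and that of C1galt1 at chr6:7844974-7845223 (+).
Cmah upstream: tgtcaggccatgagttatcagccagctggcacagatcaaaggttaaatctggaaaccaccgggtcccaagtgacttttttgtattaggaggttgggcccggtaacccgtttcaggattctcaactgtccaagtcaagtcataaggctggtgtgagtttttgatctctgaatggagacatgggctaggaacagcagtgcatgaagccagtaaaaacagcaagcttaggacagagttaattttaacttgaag
Cmah downstream: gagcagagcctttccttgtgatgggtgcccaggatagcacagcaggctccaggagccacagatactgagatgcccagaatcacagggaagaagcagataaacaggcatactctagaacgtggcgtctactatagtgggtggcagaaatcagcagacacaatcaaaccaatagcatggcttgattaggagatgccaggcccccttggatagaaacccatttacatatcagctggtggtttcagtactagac
St6gal1: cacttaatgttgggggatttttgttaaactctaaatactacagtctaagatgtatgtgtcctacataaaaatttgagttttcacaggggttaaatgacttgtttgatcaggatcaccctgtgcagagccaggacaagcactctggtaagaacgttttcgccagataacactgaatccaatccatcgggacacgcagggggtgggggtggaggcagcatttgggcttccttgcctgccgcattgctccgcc
Gcnt1: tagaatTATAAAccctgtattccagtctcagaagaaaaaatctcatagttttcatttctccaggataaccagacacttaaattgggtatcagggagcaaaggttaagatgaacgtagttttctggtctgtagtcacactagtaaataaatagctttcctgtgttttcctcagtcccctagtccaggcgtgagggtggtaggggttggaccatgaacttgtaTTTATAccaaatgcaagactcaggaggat
C1galt1: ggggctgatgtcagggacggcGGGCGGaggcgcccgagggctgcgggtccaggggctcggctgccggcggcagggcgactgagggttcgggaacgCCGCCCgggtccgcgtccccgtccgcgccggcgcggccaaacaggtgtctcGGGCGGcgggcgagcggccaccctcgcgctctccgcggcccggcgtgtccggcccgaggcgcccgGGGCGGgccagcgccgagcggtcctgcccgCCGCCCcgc
The upstream and downstream regions of Cmah and the region of St6gal1 held none of the 3 motifs, and their GC contents were 45.6%, 49.6% and 47.2%, below the median of 52.4% over all 32851 RefSeq start regions. The other 2 regions of St6gal1 held none of the motifs either, at GC contents of 52.8% and 49.6%. The first Gcnt1 region held 2 TATA box matches at a GC content of 40.4%, and its other 2 regions held none of the motifs, at GC contents of 55.6% and 51.6%. The C1galt1 region held 5 GC box matches at a GC content of 82.8%. Of all start regions, 32.7% held a GC box, 12.4% a TATA box and 7.02% the interferon-gamma activated site. A match is a description of the letters and not a site of binding. Start regions were found for 7 of the 10 genes, with 13 regions in all. Of these regions 2 held a GC box (those of C1galt1 and Neu1), 1 held a TATA box and none held the interferon-gamma activated site. Start regions of St3gal1, Siae and Nans were not analysed here. The values measure transcripts over the whole gene and do not show which start site was used.

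The supply of sialic acid begins with GNE, which converts UDP-N-acetylglucosamine to N-acetylmannosamine and phosphorylates it, the rate-limiting step of the pathway. Gne (ENSMUSG00000028479; GRCm38 chr4:44034075-44084177) measured 20.6, 16.6 and 15.8 TPM in GC pools 1 to 3, against 30.5, 31.4 and 30.9 TPM in naive pools 1 to 3. Every GC pool lay below every naive pool, and GC pool 1 lay apart from the other GC pools toward the naive level. Gne was 1.75-fold lower in GC B cells, a log2 difference of -0.79 ± 0.106 (SE; limma, adjusted p = 0.000737).

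NANS condenses phosphorylated N-acetylmannosamine with phosphoenolpyruvate to the phosphate of N-acetylneuraminic acid. Nans (ENSMUSG00000028334; GRCm38 chr4:46489329-46503438), in contrast to Gne, measured 100.1, 108 and 108 TPM in GC pools, against 43.0, 40.2 and 51.8 TPM in naive pools. It was 2.35-fold higher in GC B cells, with a log2 difference of 1.22 ± 0.0996 (SE; limma, adjusted p = 7.13e-05), the largest rise of the 10 genes. The lowest GC pool was well above the highest naive pool. Exons of Trim14 on the opposite strand overlap those of Nans, and the library kit is not stated to mark strand, so reads in the shared stretch cannot be assigned to one gene. Trim14 measured 28.9, 25.3 and 35.0 TPM in GC pools, against 41.7, 41.2 and 40.1 TPM in naive pools, a fall where Nans rose (log2 difference -0.46, limma, adjusted p = 0.0121).

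CMAS links the finished sialic acid to CMP, the form used by every sialyltransferase. Cmas (ENSMUSG00000030282; GRCm38 chr6:142756686-142775714) measured 38.7, 39.7 and 39.6 TPM in GC pools, against 26.9, 28.9 and 30.3 TPM in naive pools. The GC pools were almost level with each other and all above the naive pools. Cmas was 1.37-fold higher in GC B cells, a log2 difference of 0.44 ± 0.0641 (SE; limma, adjusted p = 0.00102).

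CMAH, the hydroxylase that turns CMP-N-acetylneuraminic acid into its N-glycolyl form, had the largest difference of the 10 genes. Cmah (ENSMUSG00000016756; GRCm38 chr13:24327404-24477289) measured 17.6, 16.9 and 16.3 TPM in GC pools, against 71.7, 75.8 and 62.1 TPM in naive pools. The lowest naive pool exceeded the highest GC pool by a wide margin, and the GC pools differed from each other by little more than 1 TPM. Cmah was 4.13-fold lower in GC B cells, a log2 difference of -1.98 ± 0.0872 (SE; limma, adjusted p = 4.28e-06), with a 95% interval from -2.19 to -1.77. By the size of its difference it stood at percentile 90.2 of all genes tested.

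Set against each other within a pool, Cmas and Cmah exchanged places. The ratio of Cmas, which makes CMP-N-acetylneuraminic acid, to Cmah, which consumes it, was 2.20, 2.35 and 2.44 in the GC pools and 0.375, 0.381 and 0.488 in the naive pools. Thus Cmas exceeded Cmah in every GC pool and Cmah exceeded Cmas in every naive pool. The mean ratio was 2.33 ± 0.123 in GC and 0.414 ± 0.0640 in naive B cells (SD, n = 3; two-sided exact permutation test on log2 ratios, p = 0.1). With 3 pools against 3, an exact test cannot give a p below 0.1.

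The wider list of sialic acid supply holds 8 genes, all of them tested. In GC B cells 3 were higher and 3 were lower, beside 35.5% and 30.1% of all genes tested. The median log2 difference of the list was -0.10. The higher ones were Nans, Cmas and Nanp, the phosphatase that releases free N-acetylneuraminic acid from the product of NANS. Nanp measured 9.77, 11.9 and 12.7 TPM in GC pools 1 to 3, was listed at 0 in naive pool 1, and was at 2.04 and 1.28 TPM in naive pools 2 and 3. It was called higher with a log2 difference of 2.70 (limma, adjusted p = 0.00118), but with a pseudocount of 0.01 the difference was 5.26 and the call was lost (limma, adjusted p = 0.0581). Through the naive pools alone Nanp would not have passed the filter on low values, so its p is not separate evidence of a difference. The lower ones were Gne, Cmah and Renbp, which converts N-acetylglucosamine and N-acetylmannosamine into each other (log2 difference -0.55). Slc35a1, the Golgi transporter of CMP-sialic acid, and the kinase Nagk were not called, at log2 differences of -0.11 and -0.10. Upstream of GNE, the list of UDP-N-acetylglucosamine supply had 2 genes higher, 1 lower and 3 not called of 6 tested. Over all genes tested, 35.5% were higher and 30.1% were lower. The median log2 difference of this list was -0.03. Uap1, which makes UDP-N-acetylglucosamine, rose from 32.8 ± 1.33 TPM in naive to 78.0 ± 0.906 TPM in GC B cells (SD, n = 3; log2 difference 1.23, limma, adjusted p = 3.64e-06). The other 2 called genes of this list were the transporter Slc35a3 (0.60) and the acetyltransferase Gnpnat1 (-0.38), which are named because the count is small. Gnpnat1 lost its call without GC pool 3 (limma, adjusted p = 0.0502).

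**Figure D2:**
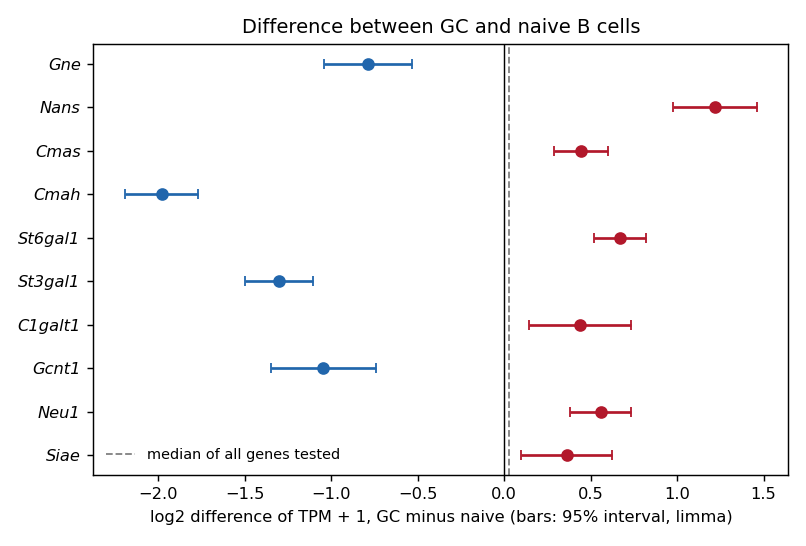
Log2 difference of TPM + 1, GC minus naive, for each of the 10 genes with its 95% interval from limma; the dashed line is the median of all genes tested, 0.03. Cmah (-1.98), St3gal1 (-1.30), Gcnt1 (-1.05) and Gne (-0.79) lie to the left and Nans (1.22) lies farthest to the right, with no interval crossing 0.

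ST6GAL1 adds sialic acid to the terminal galactose of N-acetyllactosamine, mostly on N-glycans, and makes the linkage that GL7 and CD22 recognize. St6gal1 (ENSMUSG00000022885; GRCm38 chr16:23224729-23360350) measured 283, 277 and 305 TPM in GC pools, against 183, 190.2 and 168 TPM in naive pools. It was already the highest of the 10 genes in naive B cells, and every GC pool was higher still. The rise was 1.60-fold, a log2 difference of 0.67 ± 0.0624 (SE; limma, adjusted p = 0.000128). An exon of BC106179 on the opposite strand overlaps St6gal1, and that gene was at 1.57 to 1.78 TPM in GC and 1.58 to 2.11 TPM in naive pools, a small level beside that of St6gal1.

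ST3GAL1 adds sialic acid in another linkage, to the galactose of the core O-glycan that C1GALT1 makes. St3gal1 (ENSMUSG00000013846; GRCm38 chr15:67102875-67176946) measured 18.9, 19.5 and 20.9 TPM in GC pools, against 52.8, 52.5 and 45.4 TPM in naive pools. The groups were far apart relative to the spread within each. St3gal1 was 2.54-fold lower in GC B cells, a log2 difference of -1.30 ± 0.0819 (SE; limma, adjusted p = 2.15e-05).

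The ratio of St6gal1 to St3gal1 within a pool was 15.0, 14.2 and 14.6 in GC and 3.47, 3.62 and 3.70 in naive B cells. The means were 14.6 ± 0.397 and 3.60 ± 0.117 (SD, n = 3; two-sided exact permutation test on log2 ratios, p = 0.1, the smallest possible), so the ratio was 4.05-fold higher in GC B cells.

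**Figure D3:**
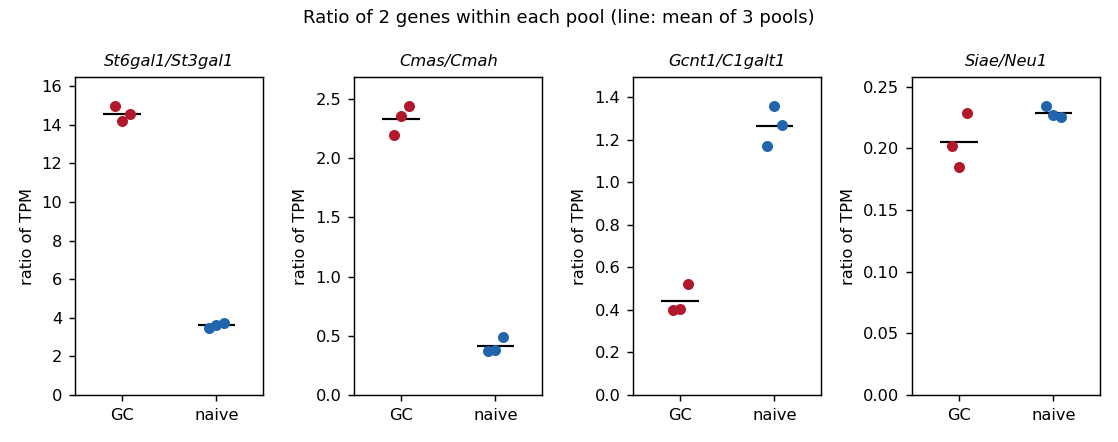
Ratio of TPM between a pair of genes within each pool, for GC (red) and naive (blue) pools, with the mean of 3 pools as a line and the vertical axis from 0. St6gal1/St3gal1 averages 14.6 and 3.60, Cmas/Cmah 2.33 and 0.414, and Gcnt1/C1galt1 0.441 and 1.27, while the pools overlap for Siae/Neu1.

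The whole sialyltransferase list holds 20 genes, of which 13 were tested. In GC B cells 4 were higher and 5 were lower, beside 35.5% and 30.1% of all genes tested, and 4 were not called. The median log2 difference of the list was -0.06. The other 7 were under 1 TPM in all 6 pools, and 3 of these were listed at 0 in every pool. Beside St6gal1, the higher genes were St6galnac6, St3gal2 and St3gal5, the synthase of the ganglioside GM3. St6galnac6, which acts mainly on gangliosides, rose from a mean of 5.05 to a mean of 14.5 TPM (n = 3 pools each; log2 difference 1.36, limma, adjusted p = 3.81e-05), and the differences of St3gal2 and St3gal5 were 0.78 and 0.44. Beside St3gal1, the lower genes were St3gal6, St6galnac3, St3gal4 (log2 difference -0.93) and the polysialyltransferase St8sia4 (-0.62). St3gal6, which sialylates N-acetyllactosamine, fell from 30.8 ± 3.06 to 8.66 ± 1.46 TPM (log2 difference -1.72, limma, adjusted p = 5.46e-05). St3gal4 measured 2.44, 5.58 and 3.16 TPM in GC pools, against 12.0, 6.06 and 6.07 TPM in naive pools. Its call (limma, adjusted p = 0.0463) was lost in 7 of 15 alternatives, among them leaving out any single pool but GC pool 2, at adjusted p from 0.0589 to 0.131. The epithelial markers summed to 54.6, 112 and 63.6 TPM in GC pools, against 185, 131 and 132 TPM in naive pools. Like St3gal4, they were highest in GC pool 2 and in naive pool 1 of their groups. Whether epithelial RNA adds to the St3gal4 values was not tested. St3gal5 lost its call in 4 alternatives, among them without GC pool 1, GC pool 3 or naive pool 2 (limma, adjusted p from 0.0505 to 0.0705). St6galnac3 was at 4.47 to 5.18 TPM in naive pools, and in GC pools it was listed at 0 in pool 1 and was at 0.927 and 0.195 TPM in pools 2 and 3 (log2 difference -2.13, limma, adjusted p = 0.000418). It passed the filter only through the naive pools, where it was higher, so its p is not separate evidence of a difference.

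Summed over these 20 genes, sialyltransferase transcripts came to 425 ± 13.1 TPM in GC B cells, against 374 ± 17.7 TPM in their naive counterparts (SD, n = 3). St6gal genes made up 67.6%, 66.5% and 69.2% of this sum in the GC pools and 47.9%, 49.2% and 47.5% in the naive pools, in practice all from St6gal1. St3gal genes made up 15.0% ± 0.972 in GC and 30.1% ± 0.586 in naive B cells. Without St6gal1 the order of the sums turned, with 193.7 ± 7.02 TPM in the naive population and 137 ± 2.12 TPM in the GC population. The share of St6galnac genes overlapped between the populations (11.5% ± 0.687 and 11.9% ± 0.951), and that of St8sia genes was 5.72% ± 0.488 and 9.72% ± 0.448. These shares are of transcripts and say nothing on enzyme activity.

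**Figure D4:**
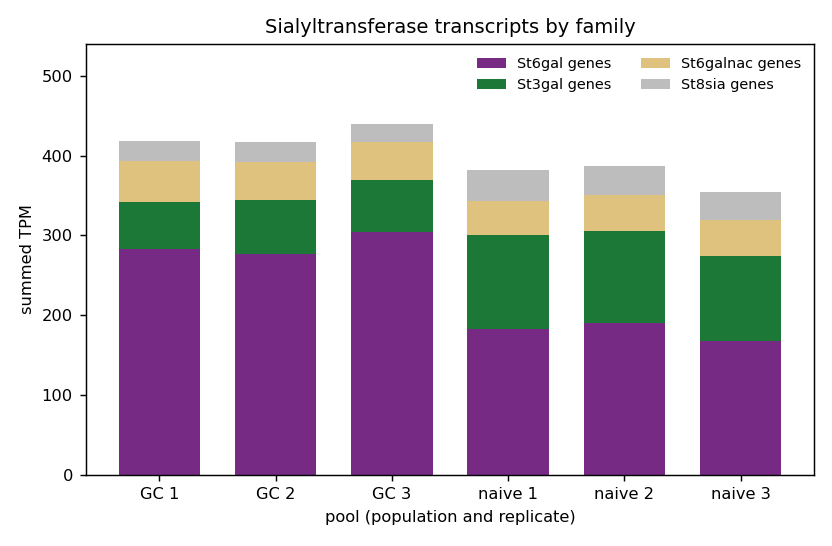
Summed TPM of the sialyltransferase genes in each pool, stacked by family, with the vertical axis from 0. The St6gal block averages 288 TPM in GC and 181 TPM in naive pools, and the St3gal block 63.7 and 113 TPM.

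O-glycans start with N-acetylgalactosamine on serine or threonine, and C1GALT1 extends it with galactose to the core that ST3GAL1 can cap. C1galt1 (ENSMUSG00000042460; GRCm38 chr6:7845224-7872042) measured 53.0, 46.8 and 45.7 TPM in GC pools, against 41.2, 35.7 and 30.2 TPM in naive pools. The gap between the lowest GC pool and the highest naive pool was smaller than the spread among the naive pools. C1galt1 was 1.36-fold higher in GC B cells, a log2 difference of 0.44 ± 0.122 (SE; limma, adjusted p = 0.0182). Without GC pool 1 the call was lost, at a log2 difference of 0.38 (limma, adjusted p = 0.0597).

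GCNT1 adds the branch that turns this core into the core from which N-acetyllactosamine arms are built on O-glycans, and it competes with ST3GAL1 for the same acceptor. Gcnt1 (ENSMUSG00000038843; GRCm38 chr19:17326141-17372844) measured 21.1, 18.9 and 23.8 TPM in GC pools, against 48.1, 48.6 and 38.3 TPM in naive pools. Naive pool 3 was the lowest of its group and still above every GC pool. Gcnt1 was 2.12-fold lower in GC B cells, a log2 difference of -1.05 ± 0.126 (SE; limma, adjusted p = 0.000427).

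The ratio of Gcnt1 to C1galt1 within a pool was 0.397, 0.403 and 0.521 in GC and 1.17, 1.36 and 1.27 in naive B cells. C1galt1 exceeded Gcnt1 in every GC pool, and Gcnt1 exceeded C1galt1 in every naive pool (two-sided exact permutation test on log2 ratios, p = 0.1, the smallest possible with n = 3 a group). In the list of O-glycan core and extension genes, 5 of 8 were tested. Of these, 2 were higher (C1galt1 and Gcnt3) and 3 were lower (Gcnt1, C1galt1c1 and B3gnt3), beside 35.5% and 30.1% of all genes tested. The median log2 difference of the list was -0.53. B3gnt3 lost its call in 6 alternatives, among them without GC pool 1 or 3 or naive pool 2 or 3 (limma, adjusted p from 0.0511 to 0.0703). C1galt1c1 encodes the chaperone that C1GALT1 needs to be active, and it was lower by 0.86 log2 units where C1galt1 was higher (limma, difference -0.86, adjusted p = 0.000965). Gcnt3, a relative of Gcnt1 known from mucin-producing epithelium, measured 2.65, 3.20 and 2.94 TPM in GC pools, against 0.0258 to 0.0547 TPM in naive pools (log2 difference 1.92, limma, adjusted p = 2.84e-05). It was weak but present in every GC pool. Gcnt3 passed the filter only through the GC pools, where it was higher, so its p is not separate evidence of a difference.

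The list of O-glycan initiation genes, the polypeptide N-acetylgalactosaminyltransferases, holds 18 genes, of which 8 were tested. Among these, 2 were higher and 5 were lower, beside 35.5% and 30.1% of all genes tested, and 1 was not called. The median log2 difference of the list was -0.68. Galnt6 fell from 32.7 ± 2.89 TPM in naive to 5.15 ± 0.366 TPM in GC B cells (SD, n = 3; log2 difference -2.45, limma, adjusted p = 2.78e-06). Galnt4 and Galnt10 fell as well, by 1.19 and 1.08 on the log2 scale. Galnt1 and Galnt11 were the other lower genes (-0.43 and -0.93), and Galnt7 and Galnt12 were the higher ones (0.58 and 0.99).

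NEU1 is the lysosomal sialidase, which cleaves terminal sialic acid from glycoproteins as they are degraded. Neu1 (ENSMUSG00000007038; GRCm38 chr17:34931253-34937297) measured 44.1, 44.5 and 42.6 TPM in GC pools, against 30.8, 30.7 and 26.8 TPM in naive pools. The GC pools lay close together and all above the naive pools. Neu1 was 1.49-fold higher in GC B cells, a log2 difference of 0.56 ± 0.0723 (SE; limma, adjusted p = 0.000613). Ctsa, the protective protein that NEU1 needs for stability in the lysosome, was called in the opposite direction (log2 difference -0.97, limma, adjusted p = 1.43e-05).

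SIAE removes acetyl groups from sialic acid and thereby opens it to lectins such as CD22. Siae (ENSMUSG00000001942; GRCm38 chr9:37613821-37648258) measured 8.90, 8.24 and 9.73 TPM in GC pools, against 7.21, 6.98 and 6.04 TPM in naive pools. The groups did not overlap, but the gap between them was smaller than the spread within either. Siae was 1.33-fold higher in GC B cells, a log2 difference of 0.36 ± 0.109 (SE; limma, adjusted p = 0.0246), the weakest call of the 10. The call was lost in 5 of 15 alternatives, among them without GC pool 1 (0.37, limma, adjusted p = 0.0637), without GC pool 3 (0.31, adjusted p = 0.0793) without naive pool 3 (0.30, adjusted p = 0.0570) and when no filter on low values was applied (0.36, adjusted p = 0.0530). Casd1, which adds the acetyl groups that SIAE removes, was not called (log2 difference -0.09, limma, adjusted p = 0.379). The ratio of Siae to Neu1 was 0.205 ± 0.0219 in GC and 0.229 ± 0.00467 in naive B cells, with overlapping pools (SD, n = 3; two-sided exact permutation test on log2 ratios, p = 0.3). In the whole list of removal and modification genes, 5 of 8 were tested, with a median of -0.09. Of these, 2 were higher (Neu1 and Siae) and 1 was lower (Ctsa), beside 35.5% and 30.1% of all genes tested. Neu3 and Casd1 were not called.

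The N-acetyllactosamine list holds genes for building N-acetyllactosamine and related chains, and not only the chain to which ST6GAL1 adds sialic acid. B3gnt5 and B4galt5 in it act on glycolipids, while ST6GAL1 acts mostly on N-glycans. Of its 9 genes tested among 14, 6 were lower, 1 was higher and 2 were not called in GC B cells. Over all genes tested, 30.1% were lower and 35.5% were higher. The median log2 difference of the list was -0.97, beside 0.03 over all genes. The count of lower genes was 5 in 9 of 15 alternatives, since B3gnt2 (log2 difference -0.40, limma, adjusted p = 0.0493) lost its call in those 9, among them leaving out any single pool but naive pool 3, at adjusted p from 0.0511 to 0.142. B3gnt5, the synthase that starts lacto-series glycolipids, measured 11.4, 12.2 and 11.4 TPM in GC pools, against 93.2, 100.2 and 89.4 TPM in naive pools (log2 difference -2.91, limma, adjusted p = 3.54e-07). B3gnt8, which extends poly-N-acetyllactosamine, fell from 80.9 ± 4.26 to 19.6 ± 1.37 TPM (log2 difference -1.99, limma, adjusted p = 1.93e-06). The galactosyltransferase B4galt1 measured 14.3, 14.2 and 14.3 TPM in GC pools, against 38.2, 34.8 and 34.4 TPM in naive pools (log2 difference -1.27, limma, adjusted p = 1.03e-05). B4galt5, the lactosylceramide synthase, fell from 51.5 ± 5.20 to 19.1 ± 4.64 TPM (log2 difference -1.41, limma, adjusted p = 0.000423). B3gnt9 was the one higher gene (log2 difference 0.93, limma, adjusted p = 0.00730). It measured 2.08, 2.81 and 2.58 TPM in GC pools, against 0.405, 0.931 and 1.24 TPM in naive pools. Through the naive pools alone B3gnt9 would not have passed the filter, so its p is not separate evidence of a difference. With a filter of 5 TPM it was not tested.

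The receptors of sialic acid on B cells were lower in GC B cells. CD22 and SIGLEC-G are inhibitory lectins that bind sialic acid on the same or on other cells. Cd22 measured 438, 456 and 466 TPM in GC pools, against 699.99, 758 and 663 TPM in naive pools (log2 difference -0.64, limma, adjusted p = 0.000113). Siglecg measured 206, 202 and 207 TPM in GC pools, against 290.04, 331 and 285 TPM in naive pools (log2 difference -0.55, limma, adjusted p = 0.000352). Neither overlapped between the populations, as was the case for 70.7% of all genes tested. The other 7 genes of the receptor list did not pass the filter on low values.

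Over all 10 lists, 101 genes other than the 10 described had a value and 59 of them were tested, of which 15 were higher, 26 were lower and 18 were not called in GC B cells. Their median log2 difference was -0.30, beside 0.03 over all 12785 genes tested, of which 4540 were higher and 3852 were lower. Of the 59, 5 were called higher and 12 lower by at least 1 log2 unit, beside 14.2% and 11.2% of all genes tested.

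**Figure D5:**
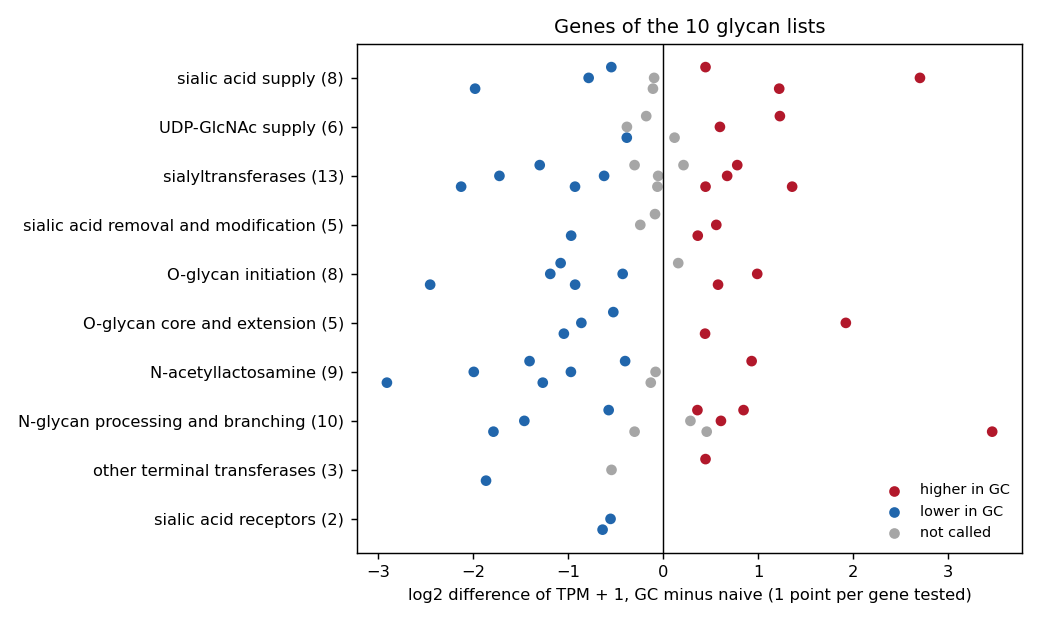
Log2 difference of TPM + 1, GC minus naive, for each tested gene of the 10 lists, 1 point per gene, in red where called higher, in blue where called lower and in gray where not called; the number tested is beside each list name. In the N-acetyllactosamine list 6 of 9 points are blue, with B3gnt5 at -2.91, while the supply and sialyltransferase lists hold points on both sides.

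The tested genes whose profile over the 6 pools was most like that of Cmah were found by the Euclidean distance between log2(TPM + 1) profiles centered on their own means, leaving out the other 9 genes. The nearest 5 were Rftn2 (distance 0.07 log2 units), Fam65b (0.09), H2-K2 (0.10), ENSMUSG00000094924, which has no symbol in the annotation used (0.11), and Utrn (0.11). Fam65b, a regulator of RHOA in lymphocytes, measured 32.9, 33.6 and 30.6 TPM in GC pools, against 132, 145 and 120 TPM in naive pools. H2-K2 belongs to the class I histocompatibility family of near-identical genes, and its share of their reads is uncertain. Rftn2 measured 1.65, 1.62 and 1.46 TPM in GC pools, against 9.98, 10.1 and 8.04 TPM in naive pools. Utrn measured 0.29, 0.30 and 0.25 TPM in GC pools, against 3.85, 4.24 and 3.38 TPM in naive pools. For such weak genes the likeness to Cmah depends on the 1 added to TPM, and their fold changes were larger than that of Cmah. The measure orders genes by the size of the difference between the populations on this scale and by the small deviations of single pools.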

How the data were processed

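Total RNA of sorted GC and naive B cells was sequenced as 3 pools of 5 mice per population. The authors prepared libraries with a kit not stated to mark strand, removed adapters with cutadapt v1.9, used RSEM v1.2.25 with the NCBIm38 v75 transcriptome (fragment length 180, SD 50) for quantification, and deposited 1 FPKM value per gene in each pool. RSEM divides reads between similar genes by a model. CASAVA 1.8, FastQC and edgeR are also named in the submitters' processing notes. The role of edgeR is not given in the sources used here, so a further scaling by the authors cannot be told from these values.

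FPKM values were rescaled to TPM within each pool. The populations were compared on log2(TPM + 1) by lmFit and eBayes with a trend (limma 3.58.1 under R 4.3.3). The 12785 genes that reached 1 TPM in 3 or more pools entered the fit, and the threshold was an adjusted p (Benjamini-Hochberg) under 0.05. Ratios of TPM were compared by a two-sided exact permutation test. Python 3.11.15, scipy 1.17.1, numpy 2.4.6 and pandas 2.3.3 served for the rest. The labels do not state that pools of both populations with the same number share mice.

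Depth was estimated from the steps of low FPKM values of genes between 250 and 900 bases. These values lay within 0.15 of whole reads in only 70.1% to 74.7% of cases. The depths are therefore rough, and a count model was not applied.

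Symbols came from the annotation of NCBIM37, which named 33398 of 39179 identifiers, and coordinates and start regions from RefSeq tables of GRCm38.p6. Start regions were cut at their own start site. The first region of St6gal1 ends at 23224739, past the first annotated base of the gene at 23224729, and regions of later start sites lie inside their genes. Glb1 was not counted, because its symbol belongs to more than 1 identifier, and B3gnt9 was matched through a synonym.

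The 10 genes and the gene lists were chosen with earlier results of these data known. Named genes are the 10, the other list genes called with a log2 difference of at least 1, Cd22, Siglecg and Fas, and the 5 tested genes most like Cmah. Other genes are named where a count is small, after their values were seen. Some markers are not reported here.

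Alternatives covered pseudocounts of 0.1 and 0.01, no filter and a filter of 5 TPM, FPKM as deposited, quantile normalization, scaling by an unweighted trimmed mean, the replicate number as a block, robust moderation, and leaving out each pool in turn.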

Additional observations from a re-analysis of the deposited data

How the results depend on the processing

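Of 150 recomputed differences of the 10 genes, 144 kept their direction and their call, 6 lost their call and none changed direction. Of the 10 genes, between 4 and 6 were higher and 4 were lower in GC B cells under every alternative tried. The 6 lost calls concern Siae and C1galt1. The log2 difference of Siae stayed at 0.36 without a filter on low values (adjusted p = 0.0530 in limma) and at 0.36 with the replicate number as a block (adjusted p = 0.0676), and ranged from 0.30 to 0.42 when 1 pool was left out. That of C1galt1 ranged from 0.33 to 0.55 when 1 pool was left out. The cause was not tested. Pools with the same number deviated together only weakly (correlations of 0.0830, 0.0225 and 0.0456 across genes). Every pool but naive pool 2 correlated best with the pool of its own number, a hint from the data and not from the design. The numbers were not taken to pair the pools, and the replicate block changed no other call of the 10 genes. Among the other list genes, it ended those of St3gal4, B3gnt2 and B3gnt3 (adjusted p = 0.0879, 0.0526 and 0.0604). Among all genes, the block left 4342 higher and 3618 lower. The scaling that moved the median of all genes most was quantile normalization (shift of -0.0863 log2 units), which turned the balance of all genes from 4540 higher and 3852 lower to 4088 and 4455. Over the other glycan list genes, 13 to 16 were higher and 22 to 28 lower. Of the 17 named with a log2 difference of at least 1, Nanp lost its call with a pseudocount of 0.01 (log2 difference 5.26, adjusted p = 0.0581 in limma), with 1 naive pool listed at 0, and St6galnac3 and Gcnt3 did not pass a filter of 5 TPM. With 3 pools a group, the smallest p of an exact test of a ratio was 0.1, and 0.25 within numbered pairs.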

Other observations

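N-glycans are trimmed by mannosidases and then branched, galactosylated and fucosylated in the Golgi, and the genes of these steps moved in both directions. Of 11 genes in the list of N-glycan processing and branching, 10 were tested, with a median log2 difference of 0.32. In GC B cells 4 were higher and 3 were lower, beside 35.5% and 30.1% of all genes tested, and 3 were not called. Fut8, the fucosyltransferase of the N-glycan core, measured 73.0, 70.7 and 75.2 TPM in GC pools, against 5.22, 6.05 and 5.89 TPM in naive pools. Its log2 difference of 3.46 (limma, adjusted p = 3.00e-07) was the largest of all genes in the 10 glycan lists. Man2a1, Man2a2 and Mgat2 were the other higher genes, at log2 differences of 0.84, 0.61 and 0.36. Man1a, an early mannosidase, measured 50.8, 55.0 and 55.8 TPM in GC pools, against 189.7, 194 and 181 TPM in naive pools (log2 difference -1.79, limma, adjusted p = 9.40e-07). Mgat4a, a branching enzyme, fell from a mean of 31.8 to a mean of 10.9 TPM (n = 3 pools each; log2 difference -1.46, limma, adjusted p = 5.18e-05), and Mgat1 was lower by a difference of -0.57.

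Among other terminal transferases, 3 of 8 were tested. B4galnt1, which commits gangliosides to their complex forms, measured 87.8, 86.3 and 84.7 TPM in GC pools, against 314, 335 and 303 TPM in naive pools (log2 difference -1.86, limma, adjusted p = 5.77e-07). Ggta1, which makes the alpha-galactose cap that can stand in place of sialic acid, was higher (log2 difference 0.44, limma, adjusted p = 0.000552), and B4galnt2 was not called (-0.54, adjusted p = 0.0670).

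Fam65b, the named gene with the second closest profile to Cmah, is also its nearest protein-coding neighbor on chromosome 13, and this was seen only after the values were known. It begins 24234 bases beyond Cmah in GRCm38, and its log2 difference of -1.996 (limma, adjusted p = 2.90e-06) lay beside -1.98 for Cmah. On the other side, Lrrc16a, which ends 46601 bases before Cmah, measured 0.317, 0.485 and 0.362 TPM in GC pools, against 9.25, 15.8 and 12.3 TPM in naive pools (log2 difference -3.25, limma, adjusted p = 1.74e-05). Lrrc16a passed the filter only through the naive pools, where it was higher, so its p is not separate evidence of a difference. Within 500000 bases of Cmah there are 16 other protein-coding genes, of which 7 were tested. The remaining 5 were Gmnn, which was higher (3.31), Tdp2 and Gpld1, which were higher by 0.54 and 0.43, and BC005537 and Acot13, which were not called (-0.04 and -0.05). Whether the neighbors share a cause of their difference was not tested.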
